A study of Chlamydomonas reinhardtii with 5 samples.

Results

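Transcription levels of 6 photoprotection genes of C. reinhardtii were examined in RNA-Seq counts of 17742 genes: LHCSR1, LHCSR3.1, LHCSR3.2, PSBS1, PSBS2 and CrLHL4. The genes were chosen by ORF name, after their counts and their fold changes in these same libraries had been seen, so that their levels and ratios are given as a description. Each of the 6 had at least 1 count in every library. The cells were wild type, strain CC-125, and grew under constant white light. One library was counted for a mock, for X-rays of 6 Gy (XR6) and 50 Gy (XR50), and for γ-rays of 6 Gy (GR6) and 50 Gy (GR50). For X-rays, cells were concentrated in microcentrifuge tubes and exposed for 22.2 min at 6 Gy and for 8.1 min at 50 Gy. γ-irradiated cells stayed unconcentrated in larger tubes for 1 h at either dose. Radiation type, tube, exposure time and dose rate therefore cannot be told apart. Within X-rays, 50 Gy was given in less time and at a higher tube current than 6 Gy. Dose, exposure time and dose rate cannot be told apart there either. Within γ-rays, both doses took 1 h, so that dose and dose rate cannot be told apart. The comparison addresses how genes used against excess light and UV-B stood after each kind and dose of ionizing radiation.

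Photosynthetic cells protect photosystem II from excess light by releasing absorbed energy as heat, a process known as non-photochemical quenching. In C. reinhardtii, the LHCSR proteins are antenna proteins that bind pigments, sense the acidification of the thylakoid lumen and carry out this quenching. LHCSR3, encoded by a pair of very similar genes, is best known from high light, and LHCSR1 is also known from UV-B. PSBS is the corresponding pH sensor of land plants, and in this alga it is known as a protein that appears transiently under high light or UV-B. CrLHL4 is an Lhc-like gene that the study describes as inducible by strong light.

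The ORFs were located on the NCBI v5.5 genome, to which the gene names of the counts belong. LHCSR1 (CHLRE_08g365900v5) lies on chromosome 8 from 1710379 to 1712537. LHCSR3.2 (CHLRE_08g367400v5, 1936019 to 1938229) and LHCSR3.1 (CHLRE_08g367500v5, 1947449 to 1949669) are neighbours on the same chromosome, with 9219 bp and 0 annotated genes between them. PSBS1 (CHLRE_01g016600v5, 2809303 to 2811543) and PSBS2 (CHLRE_01g016750v5, 2818212 to 2820402) are 6668 bp apart on chromosome 1, with 2 genes between them. CrLHL4 (CHLRE_17g740950v5) lies on chromosome 17 from 6033333 to 6035915. The reference table lists these ORFs without a product name, and the identity of the LHCSR and PSBS genes was not tested by sequence. CrLHL4 was among the genes that the study had selected on a more than 2-fold difference from the mock.

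Between 18364833 and 20330055 reads were counted on genes, which was 49.3% to 55.9% of the reads listed. Reads aligned to more than 1 place are not counted on a gene, so that similar copies may lose reads. Their share was 2.95% in the mock, 4.39% in XR6 and 3.02% to 3.73% in the other libraries. Levels are given as CPM, counts relative to library size, scaled by the TMM method of edgeR, which keeps the bulk of the genes level between libraries. Each condition had a single library, so that no test against the mock could be made. Whether the mock cells were held like the X-ray or the γ-ray cells is not stated in the methods. Ratios carry the exact Clopper-Pearson 95% interval of their pair of counts, which covers counting error only and not the spread between cultures. With library totals in place of TMM, every ratio of XR6 to the mock would be higher by 0.21 on the log2 scale and every ratio of XR50 to XR6 would be lower by 0.14. For the other ratios the shift was at most 0.11.

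LHCSR1 was lower than the mock in every irradiated library, and further below it after X-rays than after γ-rays. It was counted 1000 times in the mock, 287 and 253 times after X-rays of 6 and 50 Gy, and 704 times after either dose of γ-rays. Its level was 55.3 CPM in the mock (95% interval 51.9 to 58.8), 14.4 and 13.0 CPM in XR6 and XR50, and 36.6 and 34.9 CPM in GR6 and GR50. Both X-ray libraries were thus below both γ-ray libraries. Relative to the mock, LHCSR1 was 3.83-fold lower in XR6 (log2 ratio -1.94, -2.13 to -1.75) and 4.27-fold lower in XR50 (-2.09, -2.30 to -1.89). It was 1.51-fold lower in GR6 (-0.60, -0.74 to -0.45) and 1.58-fold lower in GR50 (-0.66, -0.80 to -0.52). Between doses, the log2 ratio was -0.15 (-0.40 to 0.09) within X-rays and -0.07 (-0.22 to 0.09) within γ-rays, both within counting error. With library totals, the former was -0.30 (-0.55 to -0.05) and no longer included 0.

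LHCSR3.1 stood in another order, highest in XR6 and lowest after γ-rays. It was counted 577 times in the mock, 739 and 318 times after X-rays of 6 and 50 Gy, and 59 and 46 times after γ-rays of these doses. The levels were 31.9 CPM in the mock, 37.1 and 16.3 CPM after X-rays, and 3.07 and 2.28 CPM after γ-rays. The X-ray libraries thus differed from each other, whereas the γ-ray libraries were near each other. In XR6, the log2 ratio to the mock was slightly above 0, at 0.22 (0.06 to 0.38), and in XR50 it was -0.97 (-1.17 to -0.77). LHCSR3.1 was 10.4-fold lower than the mock in GR6 (log2 ratio -3.38, -3.79 to -2.99) and 14.0-fold lower in GR50 (-3.80, -4.27 to -3.37). From XR6 to XR50 the log2 ratio was -1.19 (-1.38 to -0.998), beyond counting error, and from GR6 to GR50 it was -0.43 (-1.01 to 0.16), within it.

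LHCSR3.2, the neighbouring copy, had fewer reads and nearly the same pattern. Its counts were 354 in the mock, 427 and 186 after X-rays, and 31 and 36 after γ-rays of 6 and 50 Gy. The levels were 19.6 CPM in the mock, 21.5 and 9.53 CPM after X-rays, and 1.61 and 1.79 CPM after γ-rays. XR6 and the mock did not differ beyond counting error, with a log2 ratio of 0.13 (-0.07 to 0.34), although with library totals it was 0.34 (0.13 to 0.55). In XR50, the log2 ratio to the mock was -1.04 (-1.30 to -0.78). LHCSR3.2 was 12.1-fold lower than the mock in GR6 (-3.60, -4.18 to -3.07) and 10.9-fold lower in GR50 (-3.45, -3.99 to -2.96). Its log2 ratio of XR50 to XR6 was -1.17 (-1.43 to -0.92), within counting error of that of LHCSR3.1.

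**Figure D1:**
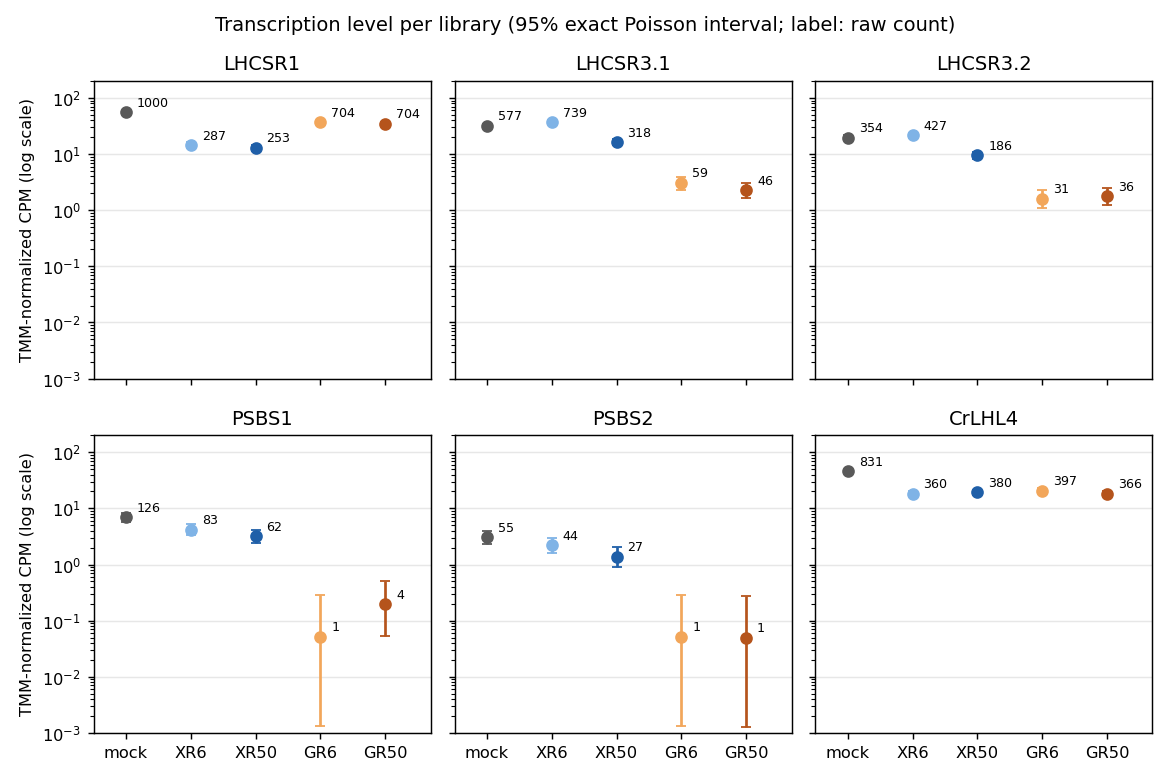
TMM-normalized CPM (log scale) of the 6 genes in the mock, X-ray and γ-ray libraries, 1 library per condition, with exact 95% Poisson intervals and the raw count beside each point. LHCSR1 was lowest after X-rays, the LHCSR3 and PSBS genes were lowest after γ-rays, and CrLHL4 lay between 18.1 and 20.6 CPM in all irradiated libraries.

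The 2 LHCSR3 copies divided their reads in a similar proportion in every library. LHCSR3.1 took 62.0% of the reads on both in the mock (Clopper-Pearson 95% interval 58.8 to 65.1), 63.4% and 63.1% after X-rays of 6 and 50 Gy, and 65.6% (54.8 to 75.3) and 56.1% (44.7 to 67.0) after γ-rays. All 5 intervals overlapped. Summing the copies gave log2 ratios to the mock of 0.19 after X-rays of 6 Gy, -1.0 after X-rays of 50 Gy, and -3.46 and -3.66 after γ-rays. Reads that matched both copies equally were not counted, so that levels of both may be too low.

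PSBS1 and PSBS2, the weakest of the 6 genes, were almost without reads after γ-rays. PSBS1 was counted 126 times in the mock, 83 and 62 times after X-rays of 6 and 50 Gy, and 1 and 4 times after γ-rays. For PSBS2 there were 55 counts in the mock, 44 and 27 after X-rays, and 1 in each γ-ray library. A floor of 3 counts corresponds to 0.148 to 0.163 CPM by library totals, and of the γ-ray values only PSBS1 in GR50, at 0.199 CPM, was above it. In the mock, PSBS1 stood at 6.96 CPM and PSBS2 at 3.04 CPM.

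After X-rays, PSBS1 had log2 ratios to the mock of -0.74 (-1.16 to -0.33) at 6 Gy and -1.13 (-1.60 to -0.68) at 50 Gy. Those of PSBS2 were -0.46 (-1.06 to 0.14) and -1.14 (-1.86 to -0.45), the former within counting error. After γ-rays the few reads left wide intervals. PSBS1 had -7.07 (-12.38 to -4.56) at 6 Gy and -5.13 (-7.03 to -3.74) at 50 Gy, and PSBS2 had -5.87 (-11.20 to -3.33) and -5.94 (-11.27 to -3.40). Even the highest of these upper bounds, -3.33, lies well below the X-ray values. From XR6 to XR50, the log2 ratio was -0.39 (-0.89 to 0.10) for PSBS1 and -0.68 (-1.43 to 0.05) for PSBS2, within counting error. With library totals they were -0.54 (-1.03 to -0.04) and -0.82 (-1.57 to -0.10), and with the copies summed under TMM the ratio was -0.49 (-0.89 to -0.08), all beyond it. A difference between GR6 and GR50 was not detectable at this depth. PSBS1 took 69.6% of the reads on both copies in the mock and 65.4% and 69.7% after X-rays. The γ-ray libraries had 2 and 5 reads on the pair, too few for a share.

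CrLHL4 was lower than the mock in all irradiated libraries, by similar ratios. It was counted 831 times in the mock, 360 and 380 times after X-rays of 6 and 50 Gy, and 397 and 366 times after γ-rays. The log2 ratio to the mock was -1.34 (-1.53 to -1.16) and -1.24 (-1.42 to -1.06) after X-rays, and -1.15 (-1.33 to -0.98) and -1.34 (-1.52 to -1.16) after γ-rays. CrLHL4 was selected on this difference from the mock, which is therefore no finding here. Between irradiated libraries, the log2 ratio was 0.10 (-0.11 to 0.32) for XR50 over XR6 and -0.18 (-0.39 to 0.02) for GR50 over GR6. It was 0.19 (-0.02 to 0.40) for GR6 over XR6 and -0.10 (-0.31 to 0.11) for GR50 over XR50. All 4 were within counting error, except that with library totals GR50 over GR6 was -0.21 (-0.42 to -0.0035).

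**Figure D2:**
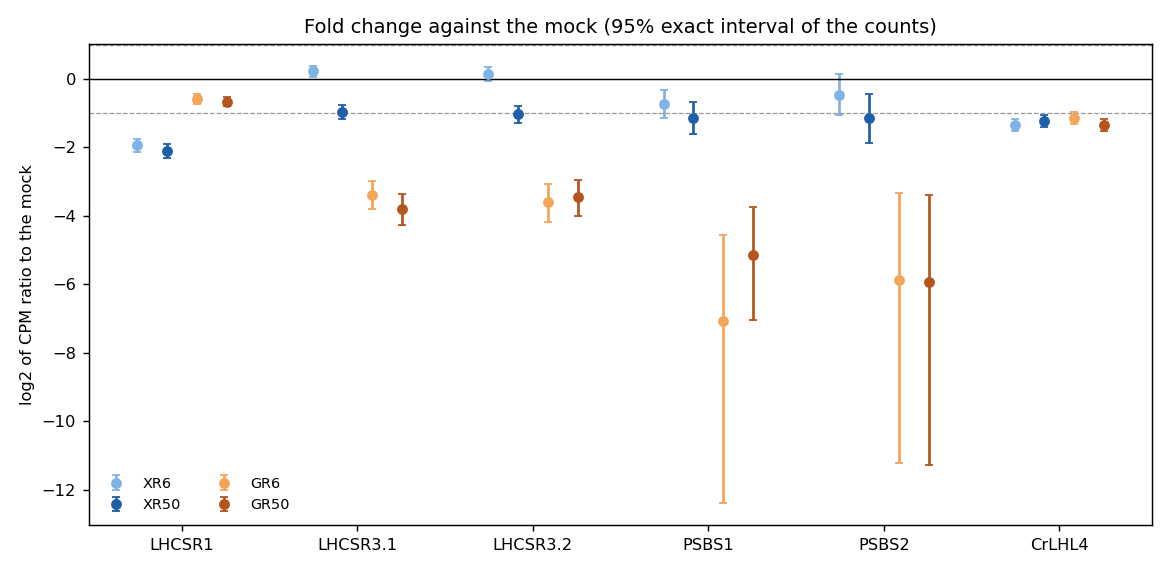
Log2 ratio of TMM-normalized CPM to the mock for the 6 genes in XR6, XR50, GR6 and GR50, with exact 95% intervals of the counts and dashed lines at 2-fold. LHCSR1 was at -1.94 and -2.09 after X-rays, the LHCSR3 genes were at 0.22 and 0.13 in XR6 and at or below -3.38 after γ-rays, and CrLHL4 lay between -1.34 and -1.15 throughout.

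Over the 6 genes, 2 were more than 2-fold below the mock in XR6 (LHCSR1 and CrLHL4), where 5.13% of all genes with reads in both libraries were. In XR50 there were 5 of 6 against 5.0%, with LHCSR3.1 just inside the limit at -0.97 and LHCSR3.2 just outside it at -1.04. This count was 4 with library totals and 6 with thinned libraries. In GR6 there were 5 of 6 against 5.81%, and in GR50 5 of 6 against 9.34%, with LHCSR1 as the exception in both. More than 2-fold above the mock there were 0 of 6, against 8.61% and 6.67% of all genes after X-rays of 6 and 50 Gy and 8.05% and 14.1% after γ-rays. The median log2 ratio of the 6 genes was -0.60 and -1.13 after X-rays of 6 and 50 Gy and -3.49 and -3.63 after γ-rays. Over all genes it lay between -0.031 and 0.00056.

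Counting error alone is exceeded by many genes at this depth. Below the mock beyond counting error were 3 of 6 in XR6 (25.0% of all genes), and 6 of 6 in XR50 (20.3%), GR6 (22.7%) and GR50 (27.8%). Above it beyond counting error was LHCSR3.1 in XR6, 1 of 6 against 25.9% of all genes. In the other libraries there were 0 of 6, against 19.5% in XR50 and 23.8% and 29.1% after γ-rays. These ratios share a single mock library, and the genes were chosen with them known, so that nothing is read from the shares.

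For a comparison between genes, CPM were divided by the annotated gene span in kilobases, introns included. In the mock, LHCSR1 led with 25.6 CPM per kb, followed by CrLHL4 with 17.8, LHCSR3.1 with 14.4, LHCSR3.2 with 8.85, PSBS1 with 3.11 and PSBS2 with 1.39 CPM per kb. In XR6, LHCSR3.1 led with 16.7 CPM per kb and LHCSR1 was at 6.68. In XR50, CrLHL4 was at 7.53, LHCSR3.1 at 7.33 (6.55 to 8.18) and LHCSR1 at 6.00 CPM per kb (5.28 to 6.79), the last 2 with overlapping intervals. In GR6 and GR50, LHCSR1 led with 16.9 and 16.2 CPM per kb, while LHCSR3.1 was at 1.38 and 1.03. LHCSR1 was thus above LHCSR3.1 in the mock and after γ-rays, and below it in XR6. The level of LHCSR3.1 may be too low in this comparison, since reads that matched both LHCSR3 copies equally were not counted.

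The share of LHCSR1 among the reads on the 3 LHCSR genes needs no scaling between libraries. Reads that matched both LHCSR3 copies equally were not counted, so that this share may be too high. It was 51.8% in the mock (49.5 to 54.0). After X-rays it was 19.8% (17.7 to 21.9) at 6 Gy and 33.4% (30.1 to 36.9) at 50 Gy. After γ-rays it was 88.7% (86.3 to 90.8) and 89.6% (87.2 to 91.6). The mock lay between the radiation types, and the intervals of the X-ray libraries, the mock and the γ-ray libraries did not overlap.

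**Figure D3:**
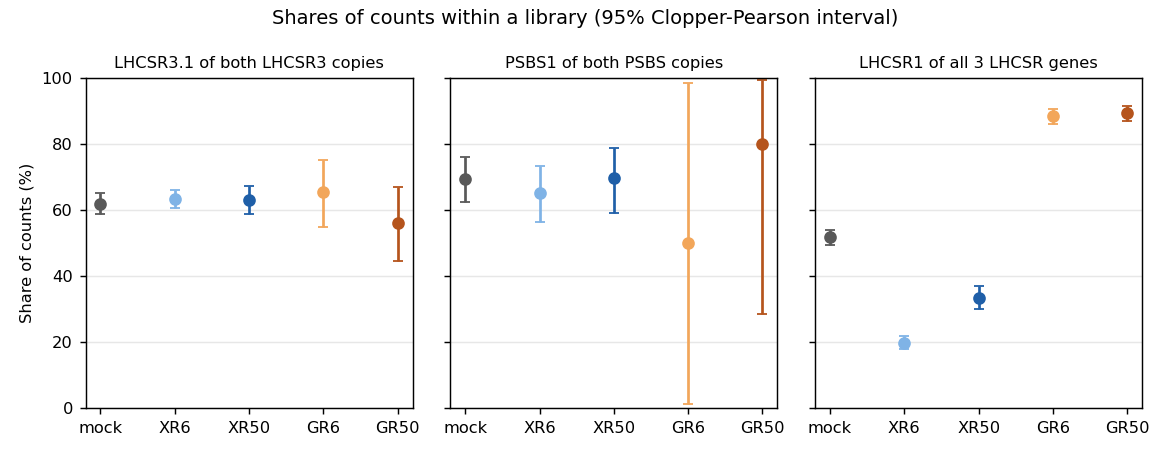
Shares of reads within each library, in percent, with Clopper-Pearson 95% intervals, for LHCSR3.1 of both LHCSR3 copies, PSBS1 of both PSBS copies and LHCSR1 of the 3 LHCSR genes. The share of LHCSR3.1 stayed between 56.1% and 65.6%, whereas that of LHCSR1 ranged from 19.8% in XR6 to 89.6% in GR50.

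Without the mock, γ- and X-ray libraries of the same dose were compared directly. LHCSR1 was 2.54-fold higher in GR6 than in XR6 (log2 ratio 1.34, 1.14 to 1.55) and 2.70-fold higher in GR50 than in XR50 (1.43, 1.22 to 1.64). The LHCSR3 genes differed in the other direction. LHCSR3.1 had -3.60 (-4.01 to -3.21) at 6 Gy and -2.83 (-3.31 to -2.39) at 50 Gy, and LHCSR3.2 had -3.74 (-4.31 to -3.21) and -2.41 (-2.97 to -1.89). PSBS1 had -6.33 (-11.65 to -3.81) and -4.0 (-5.92 to -2.57), and PSBS2 had -5.41 (-10.75 to -2.86) and -4.80 (-10.16 to -2.20). The LHCSR3 and PSBS genes were thus lower after γ-rays at both doses, and only LHCSR1 of the 6 was higher.

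At 6 Gy, 4 of 6 genes were more than 2-fold lower after γ-rays, against 9.30% of all genes, and 1 was higher, against 9.05%. At 50 Gy, there were 4 lower against 9.04% and 1 higher against 12.6%. The same genes were the ones beyond counting error, where all genes gave 26.5% lower and 26.7% higher at 6 Gy and 25.5% lower and 29.6% higher at 50 Gy. From 6 to 50 Gy of X-rays, the 2 LHCSR3 genes were more than 2-fold lower (4.66% of all genes) and also beyond counting error (21.5%). None was higher (4.72% by 2-fold and 21.1% beyond counting error). From 6 to 50 Gy of γ-rays, 0 of 6 were more than 2-fold lower (5.60%), and PSBS1 was above 2-fold (9.87%) with 4 counts against 1. No gene of the 6 went beyond counting error there, against 22.5% lower and 25.3% higher of all genes.

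**Figure D4:**
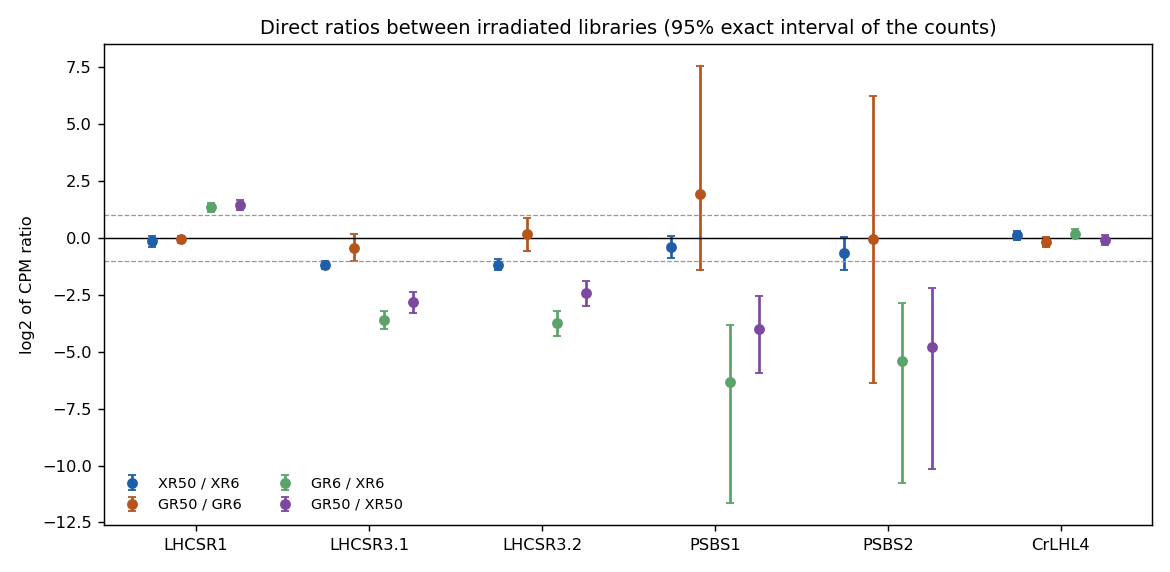
Log2 ratios of TMM-normalized CPM between irradiated libraries for the 6 genes, with exact 95% intervals of the counts: 50 Gy over 6 Gy within each radiation type, and GR over XR at each dose. Ratios between radiation types lay away from 0 for the LHCSR and PSBS genes, and ratios between doses did so for the LHCSR3 genes within X-rays.

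Dose and type were fitted together over the 4 irradiated libraries, with 14112 genes and 1 residual degree of freedom. Dose differences unlike in X- and γ-rays counted as error, shared by genes of like abundance. With prior degrees of freedom estimated as infinite, the unlike dose difference of a single gene did not widen its own test. All 6 genes passed the filter on low counts, PSBS1 and PSBS2 through the X-ray libraries alone, and these had to differ in order to pass. At an adjusted p of 0.05, 5 of 6 genes had a type effect (quasi-likelihood F-test of edgeR, Benjamini-Hochberg adjustment over all 14112), against 10.0% of all genes. LHCSR1 was higher in GR (1 of 6, against 6.14% of all genes), and the LHCSR3 and PSBS genes were lower in GR (4 of 6, against 3.87%). The genes had been chosen with these libraries known, and the test is no independent support for them. The PSBS calls are part of these counts, although passing the filter already required a difference, so that nothing is read from them.

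LHCSR1 rose from XR to GR by 1.39 on the log2 scale (standard error 0.34, adjusted p = 0.00152 by the F-test of edgeR), and ranked 450 from the highest of all type effects. LHCSR3.1 had a type effect of -3.22 (standard error 0.38, adjusted p = 1.53e-14) and LHCSR3.2 one of -3.07 (standard error 0.39, adjusted p = 1.85e-12). They were the 22nd and 26th from the lowest. PSBS1 had -4.78 (standard error 0.64) and PSBS2 had -4.96 (standard error 0.86). No p-value is given for them, since passing the filter already required a difference. With 1 to 4 reads in GR, the fitted size of the PSBS effects depends on the prior count. CrLHL4 had a type effect of 0.045 (standard error 0.34, adjusted p = 0.969), which does not show that its levels were equal.

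The calls of LHCSR1 and the LHCSR3 genes were lost when either X-ray library was left out, as were nearly all calls over all genes. The directions stayed. These fits were of type alone and left a single X-ray library, so that only effect sizes are given. Without XR6 the type effects were 1.46 for LHCSR1, -2.60 and -2.48 for LHCSR3.1 and LHCSR3.2, and -4.58 and -4.60 for PSBS1 and PSBS2. Without XR50 they were 1.30, -3.80, -3.66, -4.98 and -5.29 in the same order. In these 2 fits the error came from the γ-ray libraries alone, and in fits without a γ-ray library from the X-ray libraries alone. The reason for the lost calls was not tested, and they do not settle whether the differences depended on either X-ray library. Without GR6 the type effects were 1.33 for LHCSR1 and -3.56 and -3.13 for LHCSR3.1 and LHCSR3.2. Without GR50 they were 1.42, -3.12 and -3.26 in the same order.

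**Figure D5:**
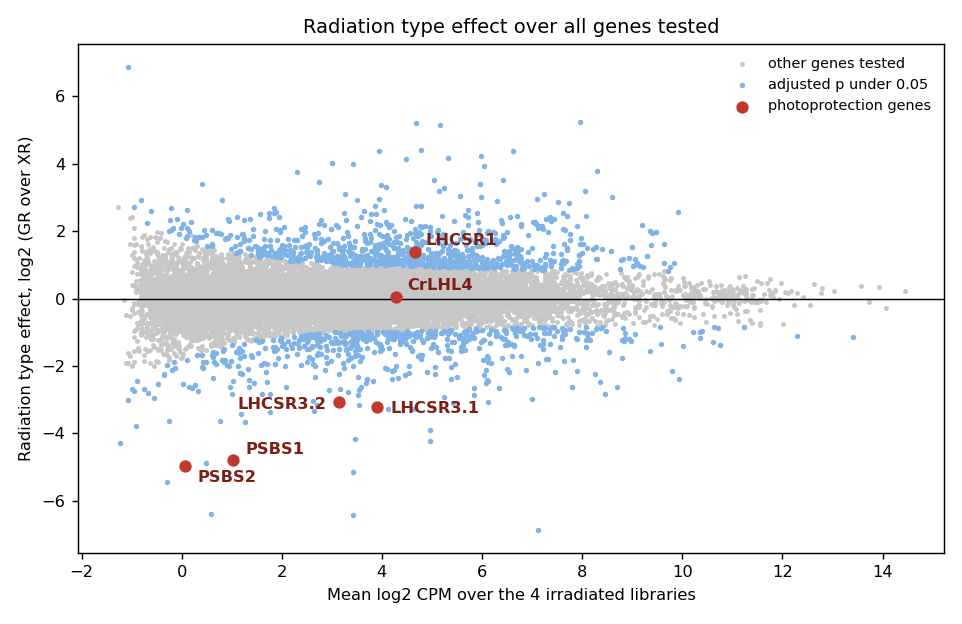
Radiation type effect (log2 of GR over XR) against mean log2 CPM over the 4 irradiated libraries for the 14112 genes tested, with genes at an adjusted p under 0.05 in blue and the 6 photoprotection genes in red. LHCSR1 lies at 1.39, CrLHL4 at 0.045, and the LHCSR3 and PSBS genes lie between -3.07 and -4.96.

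A dose effect was called in 0 of the 6 genes by the F-test of edgeR, against 1.88% of all genes (1.84% higher and 0.0354% lower at 50 Gy). LHCSR3.1 had a dose effect of -0.86 (standard error 0.36, adjusted p = 0.421 by this F-test of edgeR), and it was the 1 gene of these with an unadjusted p under 0.05. LHCSR3.2 had a dose effect of -0.63 (standard error 0.38) and an unadjusted p above that limit. The Wald test of DESeq2 called 0 of the 4 genes to which it gave an adjusted p, and gave NA for PSBS1 and PSBS2. LHCSR3.1 was the 1 gene at an unadjusted p under 0.05 there. The difference between the dose ratios of the LHCSR3 genes within X-rays and within γ-rays was not tested, since it serves as error in the fit. Within X-rays, the step in dose was also a step in exposure time and dose rate, and within γ-rays it was also a step in dose rate.

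Both genes flanking the LHCSR3 pair, and 1 neighbour of each PSBS gene, were well covered in the γ-ray libraries, where the LHCSR3 and PSBS genes had few reads. The other neighbours of the PSBS genes had 2 to 26 counts in every library. None of the 6 overlaps another annotated gene. CHLRE_08g367350v5, 13 bp from LHCSR3.2, was counted 123 times in the mock, 104 and 88 times after X-rays, and 98 and 76 times after γ-rays. CHLRE_08g367550v5, 859 bp from LHCSR3.1, was counted 2995 times in the mock, 1744 and 2320 times after X-rays, and 3508 and 2166 times after γ-rays. Beside the PSBS genes, CHLRE_01g016570v5 had 158 and 194 counts after γ-rays and CHLRE_01g016700v5 had 85 and 197. The type effects of these 4 genes lay between -0.30 and 0.46, with adjusted p of 0.446 and above (edgeR). On one side of CrLHL4, at 368 bp, CHLRE_17g741000v5 had a type effect of 0.95 (standard error 0.32, adjusted p = 0.0331, edgeR). Its counts were 829 in the mock, 706 and 888 after X-rays, and 1352 and 1723 after γ-rays, while CrLHL4 itself had similar counts after both.

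Profiles over the 5 libraries were compared by the root mean square difference of centred log2 CPM, as a description. The 2 LHCSR3 genes were 0.19 apart and the 2 PSBS genes 0.48. LHCSR3 and PSBS genes were 0.59 to 0.97 apart, whereas LHCSR1 was 2.02 to 2.78 away from these 4 and 0.61 away from CrLHL4. The profile of LHCSR1 was therefore nearer to that of CrLHL4 than to those of the other LHCSR genes.

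Among all genes averaging 50 counts or more per library, CHLRE_08g377950v5 was nearest to LHCSR1 at 0.13. It was counted 1055 times in the mock, 333 and 335 times after X-rays, and 807 and 717 times after γ-rays. The nearest to each LHCSR3 gene was the other copy. After it, CHLRE_09g399552v5 came next for LHCSR3.2 at 0.29, with 193 counts in the mock, 266 and 170 after X-rays, and 16 and 26 after γ-rays. CHLRE_06g309000v5 was nearest to PSBS1 at 0.49, with 371 counts in the mock, 503 and 302 after X-rays, and 10 and 12 after γ-rays. CHLRE_16g686750v5 was nearest to PSBS2 at 0.31, with 1064 counts in the mock, 1467 and 821 after X-rays, and 68 and 50 after γ-rays. These 3 genes, like the LHCSR3 and PSBS genes, had far fewer reads after γ-rays than in any other library. This follows from their choice by likeness of profile over these same libraries and is no finding. Nearest to CrLHL4, at 0.12, was CHLRE_08g375550v5. Ranking by Pearson correlation instead gave 0 of the same 3 nearest genes for each of the 6.

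A list of 21 other ORFs was compiled from general knowledge of photoprotection and of light and UV-B signalling in this alga, without annotation in the reference to check it. Relative to the mock, 1 of 21 was more than 2-fold higher in XR6, against 8.61% of all genes. In XR50, GR6 and GR50 there were 0, against 6.67%, 8.05% and 14.1%. After X-rays of 6 and 50 Gy, 0 were more than 2-fold lower, against 5.13% and 5.0%. In GR6, 3 of 21 were more than 2-fold lower, against 5.81% of all genes, and in GR50 2 of 21, against 9.34%. The median log2 ratio of the list was -0.19 and -0.26 after X-rays and -0.13 and -0.14 after γ-rays. Of the 20 that could be fitted, 2 had a higher and 2 a lower level in GR (edgeR), against 6.14% and 3.87% of all genes, and 0 had a dose effect, against 1.88%. With so few ORFs, these counts are not set apart from the shares over all genes. The lowest fitted type effect of the list was -2.50. In the direct ratios over all 21, the lowest value was -4.20 for GR6 over XR6 and -2.30 for GR50 over XR50. These ratios include the ORF that the filter on low counts left out of the fit. The lowest values need not belong to the same ORF and may rest on few reads, so that they are not set against the LHCSR3 genes.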

How the data were processed

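Stranded total RNA libraries were sequenced from both ends. Per the study's methods and the labels, the authors checked reads with FastQC 0.11.5, trimmed with Trimmomatic 0.36, mapped with HISAT2 2.2.1 to the NCBI v5.5 or the Phytozome v6.1 genome and counted with HTSeq 0.11.3. The deposited values are raw counts, and all 17742 gene names matched NCBI v5.5. The 5 counters of reads on no gene were not part of the totals. The strand setting is not given in the sources used here. The methods mention 3 biological replicates, but a single count column per condition was used here.

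TMM factors and the additive fit (filterByExpr by dose, glmQLFit, glmQLFTest) came from edgeR 4.0.16 in R 4.3.3. Prior degrees of freedom were estimated as infinite, which gives genes of like abundance the same variance. Thresholds were 2-fold, and 0.05 for p adjusted by the Benjamini-Hochberg method. Standard errors are the absolute log2 effect divided by the square root of F. Python 3.11.15 with pandas 2.3.3, numpy 2.4.6 and scipy 1.17.1 gave levels and intervals. Without molecular identifiers, PCR copies count as separate reads, so that intervals are too narrow. The fit was tested on simulated data. Alternatives were library totals, DESeq2 1.42.0 (size factors, Wald test), a prior count of 1, thinned libraries, 2 other filters, summed copies, single factors and each irradiated library left out.

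Members and lists were chosen with earlier results of these data known. Named genes were the 6 members, their nearest genes on each side and the 3 genes nearest in profile, of which at most 2 names per member were printed.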

Additional observations from a re-analysis of the deposited data

Results flagged for a closer look

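At 6 Gy, LHCSR3.1 lay slightly above the mock in XR6, at a log2 ratio of 0.22 (0.06 to 0.38), and far below it in GR6, at -3.38. The neighbouring copy LHCSR3.2 did not differ from the mock beyond counting error in XR6, at 0.13 (-0.07 to 0.34). Both ratios of LHCSR3.1 use the same mock library, each rests on a single library, and the difference between them was not tested. Kind of radiation and handling of the cells cannot be told apart here.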

How the results depend on the processing

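No paired analysis was possible because each condition had 1 library and all carried the same replicate number. Of the log2 ratios of single genes, 156 of their values under other settings stayed within counting error of the reported ones and 3 did not. These were LHCSR1 at -1.73, LHCSR3.1 at 0.43 and CrLHL4 at -1.14 in XR6 over the mock with library totals. The type calls of LHCSR1 and both LHCSR3 genes also held with library totals, DESeq2 size factors, both other filters, type alone and the DESeq2 Wald test. With the copies summed, the call of LHCSR3 held. The PSBS calls are not counted here, since passing the filter already required a difference. The Wald test gave NA for the adjusted p of PSBS2. Counts over all genes moved more. With library totals, 2044 genes were more than 2-fold higher and 475 lower in XR6 than in the mock, in place of 1336 and 795. With a mean of at least 10 counts, 455, 426 and 573 genes were more than 2-fold lower in XR6, XR50 and GR6, in place of 795, 776 and 902. A dose effect with higher levels at 50 Gy was called in 260 genes by edgeR, 73 with library totals, 143 with DESeq2 size factors, 0 with dose alone and 96 by DESeq2. One with lower levels was called in 5 genes by edgeR, 0 with dose alone and 1 by DESeq2. A type effect was called in 866 higher and 546 lower genes, in 531 higher genes with library totals, in 281 and 250 with type alone, and in 485 and 324 by DESeq2. The cause was not tested.

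Leaving out 1 irradiated library, with the factor fitted alone, compares 2 libraries with 1, and for dose it sets unlike kinds of radiation against each other. The dose effect then ranged from -0.98 to 0.72 for LHCSR1, from -3.15 to 1.60 for LHCSR3.1 and from -2.70 to 1.81 for LHCSR3.2. It ranged from -3.39 to 4.86 for PSBS1, from -4.36 to 3.62 for PSBS2 and from -0.13 to 0.054 for CrLHL4. The type effect ranged from 1.30 to 1.46 for LHCSR1, from -3.80 to -2.60 for LHCSR3.1 and from -3.66 to -2.48 for LHCSR3.2. It ranged from -5.98 to -4.19 for PSBS1, from -5.29 to -4.60 for PSBS2 and from -0.067 to 0.14 for CrLHL4. Without XR6 and without XR50, that of PSBS1 was -4.58 and -4.98. Signs opposite to the reported ones were also found for the type effect of CrLHL4 without XR6 (-0.0044), and for the dose effects of LHCSR1 without XR50 (0.44) and of PSBS1, PSBS2 and CrLHL4 without GR50 (0.58, 0.28 and 0.0079). Over all genes, 0 to 140 had a higher and 0 to 3 a lower dose effect, and 0 to 1504 a higher and 0 to 782 a lower type effect. The lone library was assumed to vary like the others.

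Transcript lengths, relatives by sequence and sequence shared between copies were planned and not run. Depth limits the PSBS genes after γ-rays, where 1 to 4 reads allow no comparison of doses.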

Other observations

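The summed level of LHCSR1, LHCSR3.1 and LHCSR3.2 was 107 CPM in the mock (95% interval 102.0 to 111.6) and 73.0 CPM in XR6 (69.3 to 76.9). It was 38.8 CPM in XR50 (36.1 to 41.6), 41.3 CPM in GR6 (38.4 to 44.2) and 39.0 CPM in GR50 (36.3 to 41.8). The sum in XR50 thus differed from that in GR6 and GR50 by less than the counting error, with log2 ratios of 0.09 (-0.06 to 0.24) and 0.01 (-0.14 to 0.15), although LHCSR1 made up 33.4% of the LHCSR counts in XR50 and 88.7% and 89.6% in GR6 and GR50. The sum was formed after its parts had been seen, and the intervals cover counting error only.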
